A study of Homo sapiens with 9 samples.

Results

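The genes described here are 10 regulators of entry into mitosis: the kinase gene CDK1, the cyclin genes CCNA2, CCNB1 and CCNB2, the phosphatase genes CDC25A, CDC25B and CDC25C, the kinase genes PLK1 and WEE1, and the transcription factor gene FOXM1. They were chosen by gene symbol in the array annotation, and all 10 were found among the 18417 genes that have a probe set of their own. WEE1 has 3 probe sets, and the brightest of them on average was used; the other genes have 1 each. RNA of T47D cells was profiled with Affymetrix HuGene arrays. T47D is an established breast cancer line of luminal type with abundant progesterone receptor. The first group received ORG2058, a synthetic progestin, at 10 nM together with doxycycline at 0.1 µg/ml for 4 days, the second ORG2058 alone at 10 nM for 4 days, and the third ethanol vehicle, for which the labels give no duration. Each group had 3 arrays, and each array held cells pooled from 3 wells. The cells of all 3 groups carried a retroviral vector with a hairpin against ELF5 that is switched on by doxycycline, so the vehicle cells carried the uninduced hairpin. Doxycycline without progestin and a control hairpin were not analysed here, and an effect of doxycycline itself cannot be told apart from that of the hairpin. The labels do not say whether the line is a single clone.

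CDK1 drives the cell into mitosis once it is bound by cyclin A2 or a B-type cyclin. WEE1 holds the complex back by phosphorylating CDK1, the CDC25 phosphatases remove that phosphate, and PLK1 tips the balance by activating CDC25C and marking WEE1 for destruction. FOXM1 transcribes many of the genes of the G2 phase and mitosis, several of the others here among them. Progestins are known to arrest breast cancer cells in culture before DNA synthesis after an initial passage through the cycle. The hairpin is aimed at ELF5, an ETS factor needed for milk-secreting alveolar cells, and the study asked how far this factor carries the progestin response.

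The target of the hairpin was at 10.42 ± 0.0608 with progestin plus doxycycline, 11.28 ± 0.0455 with progestin and 10.17 ± 0.109 with vehicle (deposited log2 value of ELF5, mean ± SD, n = 3 arrays each). With doxycycline ELF5 fell, by a log2 change of -0.87 (SE 0.08, adjusted p = 0.029). That call was lost when any array other than vehicle replicate 3 was left out, with an adjusted p of 0.0715 to 0.149, in a fit of these 2 groups alone (0.175) and under a replicate block (0.203). The log2 change of ELF5 itself stayed between -0.89 and -0.83 with any 1 array left out. The progesterone receptor gene PGR was lower with progestin by 2.28 on the log2 scale (change -2.28, SE 0.07, adjusted p = 2.96e-07). Luminal epithelial markers were strongly detected, and their summed level lay at 15.01 to 15.12 with progestin plus doxycycline, 15.03 to 15.06 with progestin and 14.89 to 14.94 with vehicle (log2 of the summed linear values, 8 genes). Among these KRT19 rose with progestin (0.46, SE 0.06), and GATA3 (-0.51, SE 0.08) and ESR1 (-0.50, SE 0.08) fell. The same sum over 12 fibroblast, endothelial and immune markers was 10.57 to 10.77, 10.63 to 10.74 and 10.48 to 10.68 in the same groups. Of those 12, COL1A1 fell with progestin (-0.42, adjusted p = 0.0136, and 0.0532 without vehicle replicate 1), and PECAM1 (0.34) and CDH5 (0.30) rose. The PECAM1 call did not survive the omission of any of 4 arrays (vehicle 1 or 2, progestin 1 or 3; adjusted p up to 0.0606) and was 0.113 with a variance trend. That of CDH5 was lost with replicate 1 or 2 of either vehicle or progestin omitted (up to 0.104), with only the 2 groups fitted (0.0594) and with the replicate block (0.0731). The part of these markers in the results below was not tested.

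Progestin against vehicle asked what the hormone did to the mitotic entry genes. All 10 fell. The falls were between 2.60-fold (CCNB1) and 3.25-fold (CCNB2) for 8 of them, 1.99-fold for CDC25B and 1.30-fold for WEE1, the inhibitor of CDK1. Among all 21214 probe sets tested 15.6% fell and 13.4% rose, together 29.0%. The progestin and vehicle arrays did not overlap for any of the 10, as for 21.5% of all probe sets in that direction. The median log2 change of the 10 genes was -1.42, and that of all probe sets was 0.02. Calls are from limma over the 9 arrays at an adjusted p under 0.05, adjusted over all probe sets. In bulk RNA, fewer cells in G2 and mitosis cannot be told apart from less of these RNAs in each cell.

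The kinase at the centre, CDK1 (probe set 7927710), measured 7.92, 8.21 and 7.95 with progestin plus doxycycline, 8.34, 8.15 and 8.28 with progestin, and 9.70, 9.71 and 9.65 with vehicle (deposited log2 values, replicates 1 to 3). The 3 vehicle arrays were high and close together, while the arrays with progestin, alone and with doxycycline, were low and overlapped each other. CDK1 fell to 37.1% of the vehicle level with progestin (log2 change -1.43, SE 0.09, adjusted p = 1.51e-05).

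Cyclin A2, which serves CDK2 during DNA synthesis and CDK1 in G2, is encoded by CCNA2 (8102643). It had 8.54, 8.59 and 8.56 with progestin plus doxycycline, 8.92, 8.67 and 8.70 with progestin, and 10.46, 10.45 and 10.45 with vehicle. Progestin replicate 1 stood above the other arrays with progestin, and the 3 groups did not overlap. The fall with progestin was 3.23-fold (log2 change -1.69, SE 0.08, adjusted p = 2.72e-06).

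For CCNB1 (8105828), the main mitotic cyclin, values were 10.16, 10.27 and 10.12 with progestin plus doxycycline, 10.50, 10.43 and 10.50 with progestin, and 11.89, 11.87 and 11.81 with vehicle. Its groups were separated throughout, with the doxycycline arrays lowest. With progestin it fell 2.60-fold (log2 change -1.38, SE 0.07, adjusted p = 3.75e-06). The other B-type cyclin, CCNB2 (7983969), whose protein is found largely at the Golgi, had 8.19, 8.46 and 8.07 with progestin plus doxycycline, 8.61, 8.29 and 8.63 with progestin, and 10.21, 10.18 and 10.25 with vehicle. It spread more than CCNB1 in the arrays with progestin, and the groups with and without doxycycline overlapped. CCNB2 fell to 30.7% of the vehicle level (log2 change -1.70, SE 0.13, adjusted p = 2.69e-05), next to 30.9% for CCNA2.

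CDC25A (8086880), the phosphatase that acts on CDK2 at the start of DNA synthesis as well as on CDK1, had 6.90, 6.75 and 6.93 with progestin plus doxycycline, 6.90, 6.81 and 7.00 with progestin, and 8.34, 8.32 and 8.31 with vehicle. The arrays with progestin were mixed whether or not doxycycline was present, and all lay far below vehicle. The fall with progestin was 2.67-fold (log2 change -1.42, SE 0.08, adjusted p = 6.58e-06).

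CDC25B (8060675), held to start CDK1 activation at the centrosome, had 8.59, 8.56 and 8.52 with progestin plus doxycycline, 8.68, 8.48 and 8.85 with progestin, and 9.72, 9.70 and 9.57 with vehicle. Vehicle was high on every array, and the progestin arrays spread around those with doxycycline. It fell 1.99-fold with progestin, to 50.3% of the vehicle level (log2 change -0.99, SE 0.10, adjusted p = 0.000158).

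CDC25C (8114425), the phosphatase that PLK1 and active CDK1 switch on at mitotic entry, had 6.79, 6.73 and 6.47 with progestin plus doxycycline, 6.92, 6.84 and 6.83 with progestin, and 8.51, 8.46 and 8.29 with vehicle. Replicate 3 was lowest in each group, and the groups did not overlap. The gene fell 2.94-fold with progestin (log2 change -1.55, SE 0.10, adjusted p = 1.42e-05).

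The polo-like kinase gene PLK1 (7994109) had 8.81, 8.83 and 8.70 with progestin plus doxycycline, 9.15, 8.93 and 9.09 with progestin, and 10.57, 10.59 and 10.57 with vehicle. Its groups were ordered with doxycycline lowest and vehicle highest, with no overlap. PLK1 fell 2.87-fold with progestin (log2 change -1.52, SE 0.08, adjusted p = 4.03e-06).

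FOXM1 (7960340) had 9.35, 9.35 and 9.28 with progestin plus doxycycline, 9.51, 9.42 and 9.58 with progestin, and 10.96, 10.90 and 10.89 with vehicle. The order of the groups was that of PLK1, again with no overlap. The fall with progestin was 2.67-fold (log2 change -1.42, SE 0.07, adjusted p = 3.22e-06).

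WEE1 (7938348) had 8.29, 8.34 and 8.25 with progestin plus doxycycline, 8.27, 8.21 and 8.44 with progestin, and 8.72, 8.71 and 8.63 with vehicle. Vehicle stayed above every array with progestin, but the gap between the nearest arrays was 0.19 on the log2 scale. WEE1 fell 1.30-fold (log2 change -0.38, SE 0.08, adjusted p = 0.00783). Housekeeping genes moved as well: 6 of the 10 measured fell and 0 rose, against 15.6% and 13.4% of all probe sets. Their median log2 change was -0.28, and that of all probe sets was 0.02. Those that fell included HPRT1 (-0.77), PGK1 (-0.53), TFRC (-0.49) and PPIA (-0.34). The part of that shift in the change of WEE1 was not tested. The other 2 probe sets of WEE1, annotated to a single cDNA, were dimmer and also fell, by -0.42 (7938364, adjusted p = 0.0455) and -0.70 (7938366, adjusted p = 0.0153).

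**Figure D1:**
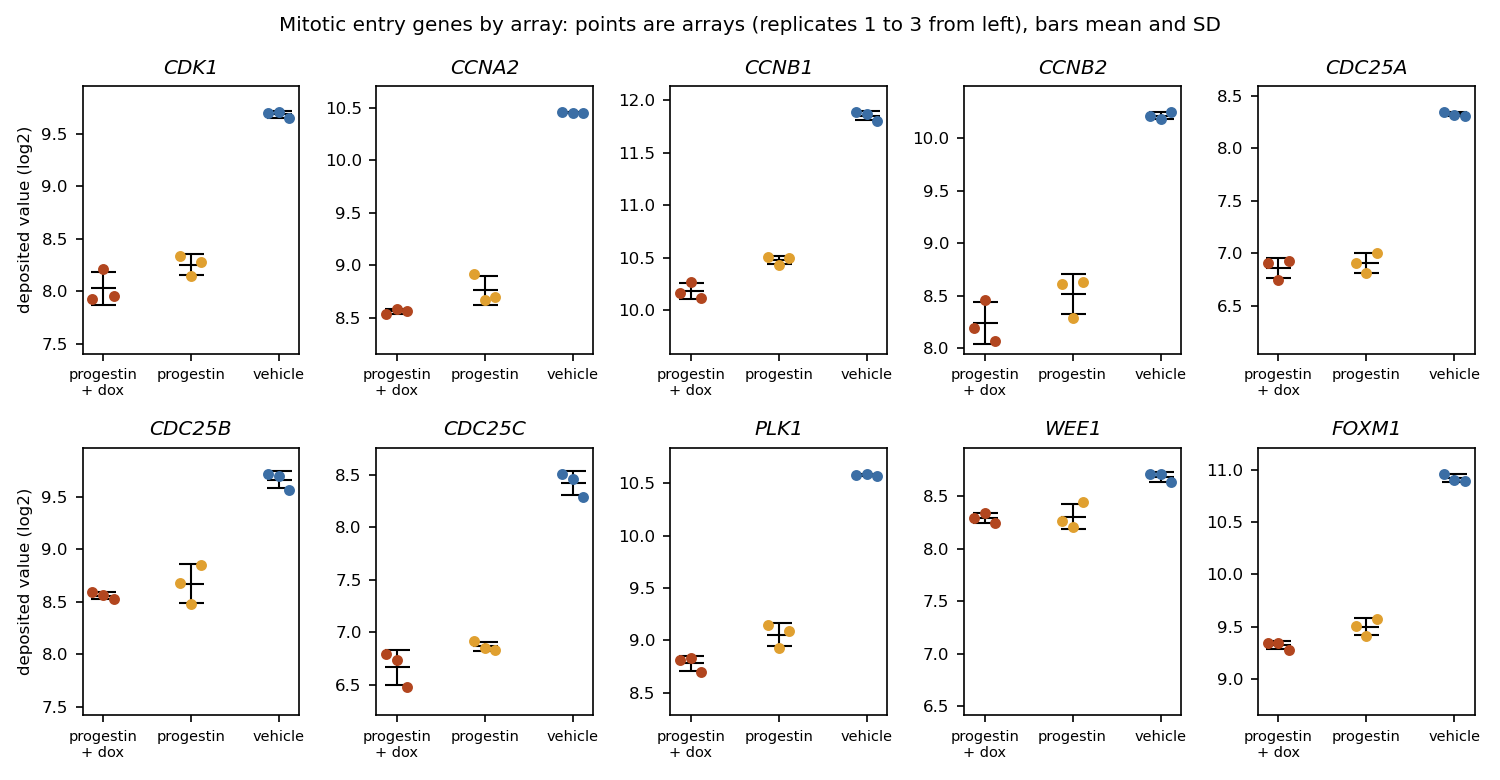
Deposited log2 values of the 10 mitotic entry genes on each array, by group (progestin plus doxycycline, progestin, vehicle); points are single arrays, black bars the mean and SD of 3 arrays, and every panel spans the same number of log2 units without starting at 0. The vehicle arrays lie above all arrays with progestin in each panel, by the narrowest margin for WEE1.

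Set against all probe sets, between 0.848% (CCNB2) and 3.51% (CDC25B) had a lower log2 change than these genes in progestin against vehicle, and for WEE1 the share was 15.6%. At least 2-fold falls that passed the test made up 2.74% of all probe sets, and 8 of the 10 genes were among them, without CDC25B and WEE1. Within arrays many of the genes deviated together from their group means. Vehicle replicate 3 was the lowest of its group for 9 of 10 genes and progestin replicate 2 for 9. Progestin plus doxycycline replicate 3 was the lowest for 7. The genes are therefore not independent measurements of a group. ELF5 was lowest on these same arrays, and PGR on the vehicle array only. The share of all probe sets with this order was not counted, so it is not shown to be particular to the 10 genes. With any 1 array left out, all 10 genes still passed the test for progestin against vehicle, and their median log2 change lay between -1.46 and -1.38.

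**Figure D2:**
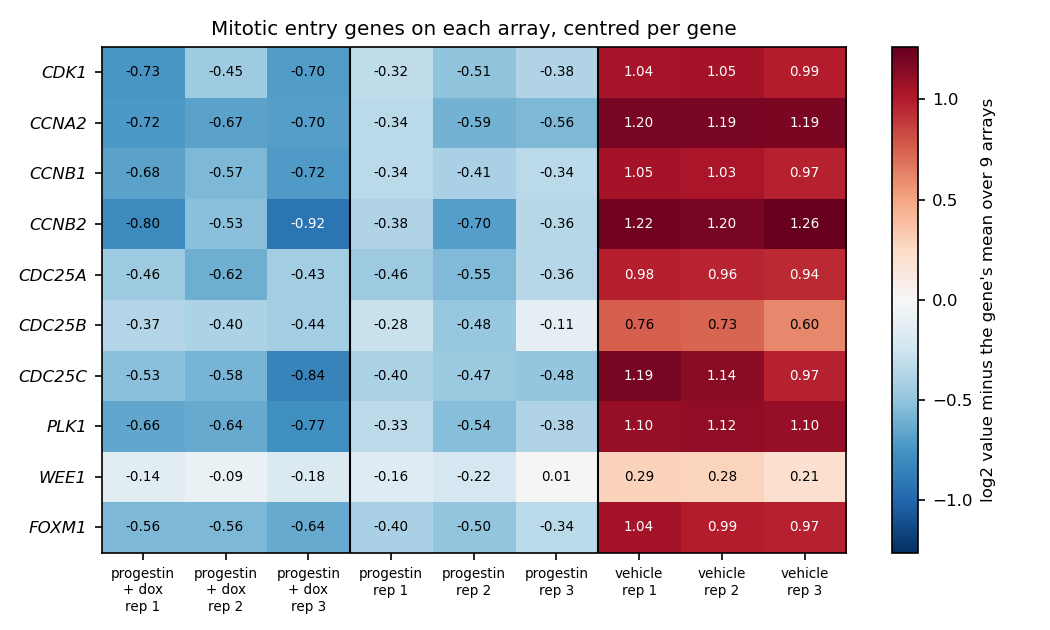
Log2 value of each mitotic entry gene minus its own mean over the 9 arrays, with arrays in columns by group and the number printed in each cell. Vehicle arrays are positive in every row, from 0.21 to 1.26, and WEE1 shows the palest row.

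How far the log2 changes of 2 genes differed was measured on the difference between them on each array, for progestin against vehicle. WEE1 minus CDK1, the brake against its target, gave 1.05 (SE 0.07). CDC25C minus WEE1, the enzymes that act on the same phosphate in opposite ways, gave -1.17 (SE 0.09). Both rest on the brightest probe set of WEE1. Over the alternatives, which include the mean of its probe sets, they lay at 0.93 to 1.12 and at -1.22 to -1.05. Among the phosphatases, CDC25A minus CDC25B gave -0.43 (SE 0.06) and CDC25B minus CDC25C gave 0.56 (SE 0.11). CDC25A minus CDC25C was 0.14 (SE 0.09), with overlapping groups. Among the cyclins, CCNA2 minus CCNB1 was -0.31 (SE 0.07) and CCNB1 minus CCNB2 was 0.32 (SE 0.10). FOXM1 minus PLK1 was 0.10 (SE 0.05), with overlapping groups. For 6 of these 8 pairs the 2 groups of arrays did not overlap, and the two-sided exact permutation test gave p = 0.1, the smallest it can give with 3 against 3. Adjusted over 24 tests (8 pairs in 3 comparisons) this was 0.171, so 0 pairs passed. In progestin plus doxycycline against vehicle, WEE1 minus CDK1 gave 1.26 (SE 0.07), CDC25C minus WEE1 -1.36 (SE 0.09) and CDC25B minus CDC25C 0.65 (SE 0.08), likewise without overlap. With doxycycline added to progestin the groups overlapped for 7 of the 8 pairs, and FOXM1 minus PLK1 gave 0.10 (SE 0.04) without overlap.

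The promoters of genes that fell together are shown for a pair of elements found in many genes of G2 and mitosis. The core of the cell cycle genes homology region, TTTGAA, is the site of the MuvB complex, which represses such genes in resting cells and with which FOXM1 and MYBL2 activate them later, and CCAAT is the box of the activator NF-Y. RefSeq windows of 250 bases before to 50 after a gene start (GRCh38.p14) were at hand for 8 of the 10 genes, in 15 windows; WEE1 and FOXM1 were not matched. The stretches printed were chosen after the motifs were found. They are the 4 genes with the letters TTTGAA, each at a start with these letters just before it, and CCNB1 as a gene without them. CCNA2, CDC25A and CDC25B, which also lack these letters, and the other starts of CDK1 and CDC25C are not printed. No other spelling of the element was searched, so a gene without TTTGAA is not shown to lack the element. Below, the stretch from 150 bases before the start to the end of the window is printed in the direction of the gene, and capitals mark the TTTGAA core, the CCAAT box and their reverse complements, which do not overlap each other in these stretches. CCNB2 lies at chr15:59104996-59105195 (plus strand), PLK1 at chr16:23678739-23678938 (plus), CDK1 at chr10:60778328-60778527 (plus, the second of 2 starts), CDC25C at chr5:138331755-138331954 (minus, the fourth of 4 starts) and CCNB1 at chr5:69167000-69167199 (plus).
CCNB2: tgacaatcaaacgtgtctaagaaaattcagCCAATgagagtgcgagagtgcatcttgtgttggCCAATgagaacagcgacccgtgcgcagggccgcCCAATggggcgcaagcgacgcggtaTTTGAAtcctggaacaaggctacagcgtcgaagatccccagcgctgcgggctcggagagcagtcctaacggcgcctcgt
PLK1: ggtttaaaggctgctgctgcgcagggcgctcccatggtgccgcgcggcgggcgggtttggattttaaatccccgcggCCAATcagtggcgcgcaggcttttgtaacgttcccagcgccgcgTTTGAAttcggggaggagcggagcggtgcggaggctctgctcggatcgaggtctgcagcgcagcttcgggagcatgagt
CDK1: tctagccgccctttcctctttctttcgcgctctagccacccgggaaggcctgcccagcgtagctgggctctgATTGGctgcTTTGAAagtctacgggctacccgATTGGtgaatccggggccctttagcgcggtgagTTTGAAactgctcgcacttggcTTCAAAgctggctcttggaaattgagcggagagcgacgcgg
CDC25C: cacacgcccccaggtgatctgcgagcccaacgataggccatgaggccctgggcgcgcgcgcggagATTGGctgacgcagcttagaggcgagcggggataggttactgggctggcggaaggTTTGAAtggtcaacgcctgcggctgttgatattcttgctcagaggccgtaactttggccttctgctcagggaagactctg
CCNB1: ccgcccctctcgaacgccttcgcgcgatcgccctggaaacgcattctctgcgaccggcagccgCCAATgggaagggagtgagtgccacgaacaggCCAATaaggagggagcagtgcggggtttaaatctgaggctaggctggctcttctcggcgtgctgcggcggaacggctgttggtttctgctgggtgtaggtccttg

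The TTTGAA core began 29 bases before the start in CCNB2 and in PLK1, 69 and 13 bases before it in CDK1, with a further match on the other strand from base 9 after the start, and 30 bases before it in CDC25C. On either strand it was in a window of 4 of the 8 genes, against 18.2% of the 27305 genes with windows. A core beginning within 50 bases before the start was found in the same 4 genes and in 3.22% of all genes. In the stretches printed above, CCNB2 had CCAAT boxes 120, 87 and 54 bases before the start, and CCNB1 had them at 87 and 55 bases. At least 1 CCAAT in either direction was found for 8 of 8 genes and for 39.7% of all genes. CDC25C has 4 starts, and the windows of 2 of them held neither motif. These matches describe letters in the reference sequence; the arrays measured no binding, and genes with more starts had more windows to hold a match.

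Adding doxycycline to progestin asked what the mitotic entry genes do when the hairpin against ELF5 is switched on. With both agents ELF5 lay 0.24 above vehicle on the log2 scale (adjusted p = 0.0502, and 0.00319 to 0.137 over the alternatives), without overlap of the arrays. None of the 10 passed the test (0 of 10, limma; lowest adjusted p = 0.152, for CCNB1), where 0.0189% of all probe sets passed and 0.00943% fell. The calls of these 4 probe sets were sensitive to the omission of an array, also of a vehicle array, which this comparison does not contrast. With replicate 1 or 2 of vehicle or of progestin plus doxycycline left out, 0 calls were left. There was 1 without replicate 2 or 3 of progestin or 3 of progestin plus doxycycline, and 2 without vehicle 3 or progestin 1. All 10 changes were nonetheless below 0, where 43.9% of all probe sets were, with a median log2 change of -0.20 against 0.03 for all. An unadjusted p under 0.05 was found for 5 of the 10, against 14.0% of all probe sets and 3.94% in that direction: CDK1, CCNA2, CCNB1, PLK1 and FOXM1. The arrays of the 2 groups did not overlap for CCNA2, CCNB1, CDC25C, PLK1 and FOXM1, 5 of the 10, against 6.43% of all probe sets in that direction.

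CCNB1 stood furthest below 0 of the 10, at 81.6% of the level with progestin alone (log2 change -0.29, 95% interval -0.45 to -0.13). PLK1 followed the same order of arrays, at 82.8% (log2 change -0.27, interval -0.45 to -0.09, adjusted p = 0.194). Both passed the test, as 2 of the 10, when limma modelled a variance trend with robust estimation (adjusted p = 0.00566 for CCNB1 and 0.0473 for PLK1), a setting that called 0.245% of all probe sets lower. CCNB2 was at -0.27 with an interval of -0.56 to 0.01 (adjusted p = 0.382).

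CDK1 (-0.22, interval -0.44 to -0.01, adjusted p = 0.347), CCNA2 (-0.20, interval -0.38 to -0.01, adjusted p = 0.331) and FOXM1 (-0.17, interval -0.33 to -0.02, adjusted p = 0.324) had intervals that just missed 0 before any adjustment. For CDC25C the log2 change was -0.20 (interval -0.43 to 0.03, adjusted p = 0.423), and for CDC25B -0.11 (interval -0.34 to 0.12, adjusted p = 0.667). The smallest changes were those of CDC25A (-0.05, interval -0.23 to 0.14) and WEE1 (-0.01, interval -0.20 to 0.17). Leaving out single arrays turned the sign of CDC25A and WEE1, as did array weights for WEE1 and the mean over its 3 probe sets, which gave 0.21 (adjusted p = 0.443). Its probe set 7938366 alone was at 6.12 ± 0.268 with progestin plus doxycycline and 5.58 ± 0.281 with progestin (log2 change 0.54, adjusted p = 0.227).

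**Figure D3:**
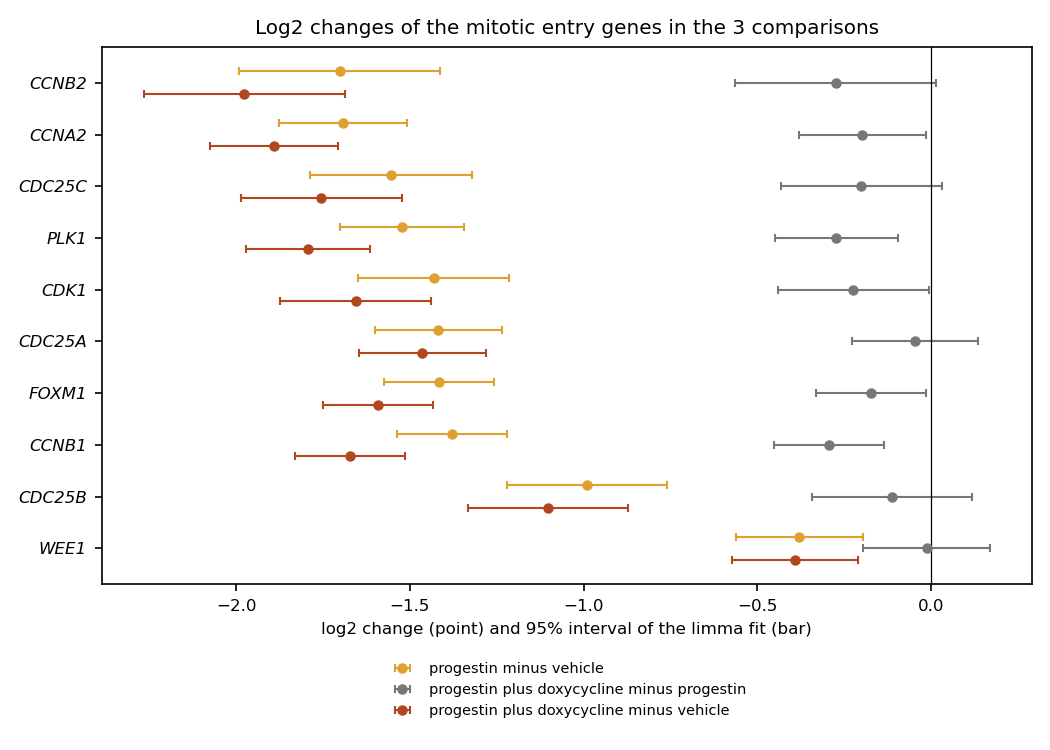
Log2 change of each mitotic entry gene (points) with the 95% interval of the limma fit (bars) in the 3 comparisons, which share arrays. Progestin lies below 0 for all 10 genes, with and without doxycycline, while the changes with added doxycycline lie between -0.29 and -0.01.

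Progestin plus doxycycline against vehicle shares its vehicle arrays with progestin against vehicle, so the values are set side by side without a test between them. All 10 genes fell, where 12.5% of all probe sets did and 28.1% changed in either direction, with a median log2 change of -1.66 and adjusted p-values between 1.14e-06 and 0.00638. CCNB2 reached 25.4% of the vehicle level (log2 change -1.98, SE 0.13) and CCNA2 27.0% (-1.89, SE 0.08). PLK1 was at -1.79 (SE 0.08), CDC25C at -1.75 (SE 0.10), CCNB1 at -1.67 (SE 0.07), CDK1 at -1.66 (SE 0.09) and FOXM1 at -1.59 (SE 0.07). CDC25A was at -1.46 (SE 0.08), CDC25B at -1.10 (SE 0.10) and WEE1 at -0.39 (SE 0.08, adjusted p = 0.00638). Over the mean of its 3 probe sets WEE1 was not called (-0.29, adjusted p = 0.0891), which left 9 of the 10 genes.

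Genes around the mitotic switch, in lists by role, are read against the 15.6% of all probe sets that fell and the 13.4% that rose with progestin. Of 9 further targets of FOXM1 that were measured, 8 fell and 0 rose, with a median log2 change of -1.42. CDC20, the activator of the anaphase-promoting complex, was at -1.86 (SE 0.10), the kinesin gene KIF20A at -1.76 (SE 0.09), the chromosomal passenger kinase gene AURKB at -1.42 (SE 0.08) and the centrosome kinase gene NEK2 at -1.37 (SE 0.08). Of 11 genes of the MuvB complex, MYBL2, E2F and pocket proteins, 9 fell, among them MYBL2 (-1.32, SE 0.07), LIN9 (-1.17, SE 0.10), RBL1 (-0.80, SE 0.09) and LIN52 (-0.70, SE 0.07).

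Among partners and activators of CDK1, 4 of 9 fell and 0 rose. They were AURKA, which activates PLK1 (-1.36, SE 0.07), its cofactor gene BORA (-1.21, SE 0.17), CKS2, a small subunit that binds CDK1 (-1.16, SE 0.08), and CDK2, the kinase of DNA synthesis (-0.93, SE 0.09).

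Of 9 brakes on CDK1, 5 fell, 4 were not called and 0 passed the test as higher. The log2 change was above 0 for 2 of the 9. They were CDKN1A (0.22, SE 0.09, adjusted p = 0.0924, limma) and GADD45A (0.29, SE 0.15, adjusted p = 0.195). PKMYT1, the kinase that like WEE1 phosphorylates CDK1, was at -0.99 (SE 0.13). The checkpoint kinase genes CHEK1 and CHEK2 were at -1.15 (SE 0.08) and -1.06 (SE 0.11), and CLSPN, the mediator of CHEK1 activation, at -1.31 (SE 0.22).

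The Greatwall kinase and the phosphatase PP2A-B55 oppose each other at mitotic entry. Of 9 such genes 3 fell and 1 rose. The kinase gene MASTL was at -0.87 (SE 0.07), the scaffold subunit gene PPP2R1B at -0.44 (SE 0.07), the B55 subunit gene PPP2R2A at -0.32 (SE 0.10) and the catalytic subunit gene PPP2CB at 0.28 (SE 0.07). The call of PPP2R2A was lost when any of 7 arrays was omitted, all but progestin 3 and progestin plus doxycycline 2 (adjusted p up to 0.122), with only the 2 groups fitted (0.0758) and with the replicate block (0.0743). That of PPP2CB was lost with vehicle 1, progestin 1 or progestin 3 omitted (up to 0.0674).

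Of 4 other polo-like kinase genes 2 fell: PLK4, the kinase of centriole duplication (-2.12, SE 0.13), and PLK2 (-1.06, SE 0.12). Of 7 genes of the machinery that degrades WEE1, the CDC25 phosphatases or cyclins, 3 fell: FBXO5, which inhibits the anaphase-promoting complex (-1.52, SE 0.07), the F-box gene CCNF (-0.97, SE 0.08) and the scaffold gene CUL1 (-0.30, SE 0.09). The CUL1 call was lost when any of 5 arrays was omitted (vehicle 1 or 2, progestin 2 or 3, progestin plus doxycycline 1; adjusted p up to 0.104) and with only the 2 groups fitted (0.0677). Of the 3 lamin genes, whose proteins CDK1 phosphorylates when the nuclear envelope breaks down, 2 fell, LMNB1 at -1.74 (SE 0.07) and LMNB2 at -0.94 (SE 0.08).

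With doxycycline added to progestin, 0 genes of these lists passed the test. The further FOXM1 targets had a median log2 change of -0.26, with 6 of 9 below 0 and 5 of 9 at an unadjusted p under 0.05, and the MuvB list had 0.10, with 5 of 11 below 0 and 0 of 11 at that p. Over all probe sets 43.9% were below 0 and 14.0% had such a p, so the share of the MuvB list below 0 was near that of all. Partners and activators of CDK1 had a median of -0.09, checkpoint brakes -0.07, and the Greatwall and PP2A-B55 list 0.08, with 1 of 9 below 0. For all probe sets the median was 0.03.

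**Figure D4:**
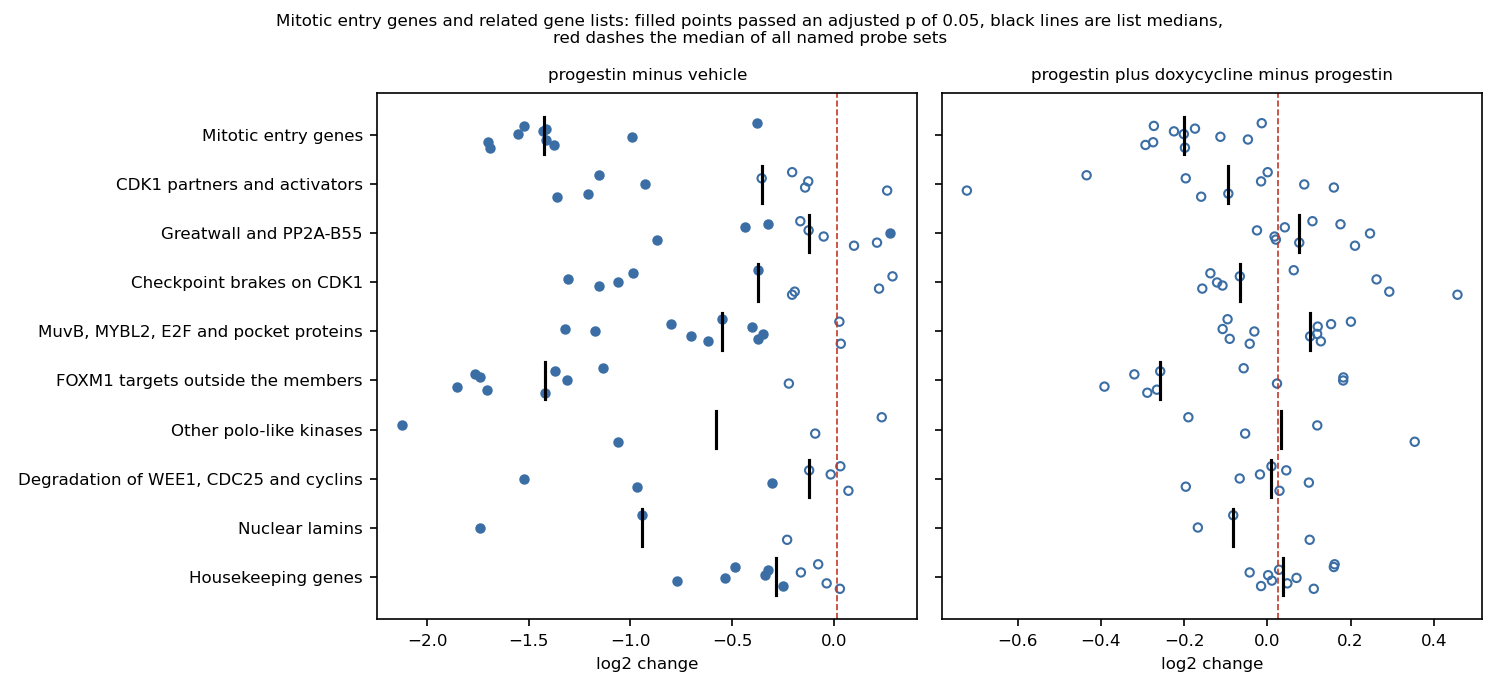
Log2 changes of the mitotic entry genes and of related gene lists (rows) for progestin minus vehicle and progestin plus doxycycline minus progestin; filled points passed an adjusted p of 0.05, black lines are medians of a row and red dashes the median of all probe sets (0.02 and 0.03). In the left panel the mitotic entry genes and FOXM1 targets share a median of -1.42, and in the right panel no point is filled.

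The genes with the most similar pattern over the 9 arrays were sought by the root mean square difference of log2 values, each gene centred on its own mean, among 18417 genes. Nearest to CDK1 were AURKB (0.0562), CCNB1 (0.0583) and CIP2A (0.0614). Nearest to FOXM1 were FAM83D (0.0389), DTL (0.0459) and NEMP1 (0.0524). For CDC25A they were INSIG1 (0.058), NEMP1 (0.0647) and NCAPD3 (0.0712), and for WEE1 PRMT7 (0.0298), AHCY (0.0314) and DDX54 (0.0318). Among the 10 genes themselves, CDK1 and CCNB1 were the closest pair, and CCNB2 and WEE1 the farthest apart (0.701). The points of such a comparison share arrays and groups, so the distances describe these 9 arrays.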

How the data were processed

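Expression was measured in 9 samples on Affymetrix HuGene arrays. The table of log2 values, 1 per probe set and array, was deposited by the authors. Per the submitters' processing notes, limma, PLIER, Affymetrix Expression Console and Affymetrix Power Tools were used. The sources used here do not give their roles, the background correction, the normalization or the genome build. The log2 scale was read from the values, which stay below 15. Array medians lay between 7.19 and 7.28, and rank correlations within groups were at least 0.989. The number of arrays limits the precision.

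Of 33297 probe sets, 21214 had a gene symbol in the platform annotation and were tested, and genes were named from the 19460 with 1 symbol. Groups came from sample titles. The design text describes independent experiments, and every p-value measures array-to-array spread only. Each comparison used limma 3.58.1 in R 4.3.3 on all 9 arrays, 1 mean per group, eBayes and Benjamini-Hochberg adjustment over all tested probe sets, two-sided at 0.05. The fit was tested on simulated data. Fold changes follow from the log2 differences. No set test was run. The mitotic entry genes, gene lists and settings were chosen with earlier results of these data known, and the list genes and counts were added to the alternatives after seeing the data. Named genes are the 10 genes, ELF5, PGR and the 3 nearest patterns of CDK1, FOXM1, WEE1 and CDC25A. Up to 4 genes per list were named, those with the smallest p among the genes called for progestin against vehicle. CDKN1A and GADD45A were named as well, as the brakes on CDK1 with a log2 change above 0, and were not followed over the alternatives. Same-numbered arrays did not deviate together (correlations of -0.15 to 0.20), so replicate numbers were not taken as pairs. Alternatives were quantile normalization, median centring, omission of the dimmest 25% of probe sets, 16 added to linear values, a variance trend with robust estimation, array weights, 2-group fits, a replicate block, leaving out each array, and the mean over a gene's probe sets.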

Additional observations from a re-analysis of the deposited data

How the results depend on the processing

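For progestin against vehicle all 10 mitotic entry genes fell under each of 18 alternatives, and the 180 single values kept their sign and their call. For progestin plus doxycycline against vehicle 179 of 180 did, WEE1 over the mean of its probe sets being the exception (adjusted p = 0.0891, leaving 9 genes). Array weights called 9502 probe sets for progestin against vehicle instead of 6161. With doxycycline added to progestin, 4 probe sets were called, but 530 with a variance trend and robust estimation (52 lower), 158 without the dimmest 25%, 15 with 16 added to linear values, 8 with array weights, 0 with only the 2 groups fitted and 0 to 2 with an array left out. Of the 10 genes, 2 were then called with the variance trend and 0 otherwise. The cause of these differences was not tested. In that comparison the log2 change of WEE1 was 0.0038 with array weights, 0.21 over the mean of its probe sets and -0.0614 to 0.0545 with an array left out. The change of CDC25A was then -0.0946 to 0.0095, and the difference of CCNB1 and CCNB2 -0.0719 to 0.0681. The replicate block called 0 probe sets with doxycycline added, 5240 for progestin plus doxycycline against vehicle (5953 without it) and 5378 for progestin against vehicle, and it changed no call of the 10 genes; 2 of 9 arrays correlated best with an array of their own number. Values near or below 0 on the log2 scale have no reliable order, and none of the 10 genes lies there.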
